A study of Mus musculus with 2 samples.

Results

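The genes described here, 8 of the 25778 genes of the count table, lie in a row on mouse chromosome 13: the transporter genes Slc17a2, Slc17a3, Slc17a1 and Slc17a4, then Scgn, Carmil1, Cmah and the antisense RNA Gm11342. They were picked for their position beside Slc17a1 and Gm11342, and these leading genes were picked because their UMI counts in rods were far higher in the Ptbp1-KO library than in the Ptbp1-Ctrl library, so the rod values below are a description of how the genes were chosen and no test of them is given. The cells came from whole retina of 30-day-old (P30) mice, dissociated with papain and captured with the 10x Genomics 3' version 3.1 chemistry. The Ptbp1-Ctrl sample had the genotype Chx10-Cre and the Ptbp1-KO sample the genotype Chx10-Cre;Ptbp1lox/lox, so the Cre transgene, which acts in retinal progenitors, was shared, and the samples differed in the floxed Ptbp1 allele, whose loxP sites flank the promoter and first exon. There was 1 library and 1 mouse per genotype, so every difference lacks a replicate check and differences between the 2 mice cannot be told apart from the genotype. Cells that did not come from progenitors with Cre activity keep the gene.

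The SLC17A1 to SLC17A4 proteins belong to the type I sodium-phosphate cotransporter family. They are best known from kidney, liver and intestine, where they carry urate and other organic anions across the membrane, while other members of the family, the vesicular glutamate transporters, load transmitter into synaptic vesicles in retina and brain. Scgn encodes secretagogin, an EF-hand calcium-binding protein known in the retina as a marker of some cone bipolar cells. Carmil1 encodes a regulator of actin capping protein. Cmah encodes the hydroxylase that turns the sialic acid Neu5Ac, as its CMP conjugate, into Neu5Gc. Gm11342 is annotated as an antisense RNA. Ptbp1 itself is an RNA-binding protein that regulates splicing and represses exons used in neurons.

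In the GENCODE M21 annotation of GRCm38 (mm10), the 8 genes covered chr13:23806993-24477377, a span of 670 kb. Slc17a2 lay at 23806993 to 23825180, Slc17a3 at 23839434 to 23860716 and Slc17a1 at 23867750 to 23895730, all on the plus strand. Slc17a4 (23895890 to 23915009), Scgn (23953456 to 23991214) and Carmil1 (24012344 to 24280795) followed on the minus strand. Cmah lay at 24327404 to 24477377 on the plus strand, and Gm11342, at 24335937 to 24414803, lay wholly inside it on the minus strand. Whether the authors' counting used strand, and whether it took intronic reads, was not stated, so reads of Gm11342 and of Cmah within the shared stretch may not have been told apart. The same holds for Scgn and the antisense gene Gm11339 inside it.

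RefSeq promoters were found for 6 of the 8 genes, with 8 start sites in all. The 250 bases before the start were searched on both strands for TAATCC, the core recognized by the photoreceptor factors CRX and OTX2, and for TGCTGA, a partial site of the rod factor NRL, which do not overlap in letters. The sequences of both leading genes and of the single promoter that held a match are shown, 5' to 3' on the strand of the gene (GRCm38.p6), because the 8 genes were chosen around the leading pair and no other promoter held a match. Capitals mark the match.
Slc17a1, first RefSeq start, plus strand, chr13:23868768-23869017: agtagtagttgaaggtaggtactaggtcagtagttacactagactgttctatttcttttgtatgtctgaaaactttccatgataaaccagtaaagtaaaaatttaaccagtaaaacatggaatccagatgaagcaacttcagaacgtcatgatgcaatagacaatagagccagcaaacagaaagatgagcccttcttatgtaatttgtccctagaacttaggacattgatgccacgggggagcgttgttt
Slc17a1, second RefSeq start, plus strand, chr13:23870023-23870272: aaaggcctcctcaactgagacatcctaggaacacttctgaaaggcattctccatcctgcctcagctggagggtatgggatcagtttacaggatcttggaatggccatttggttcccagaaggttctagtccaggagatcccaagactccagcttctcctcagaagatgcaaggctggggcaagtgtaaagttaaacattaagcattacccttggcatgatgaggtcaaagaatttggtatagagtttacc
Gm11342, minus strand, chr13:24375951-24376200: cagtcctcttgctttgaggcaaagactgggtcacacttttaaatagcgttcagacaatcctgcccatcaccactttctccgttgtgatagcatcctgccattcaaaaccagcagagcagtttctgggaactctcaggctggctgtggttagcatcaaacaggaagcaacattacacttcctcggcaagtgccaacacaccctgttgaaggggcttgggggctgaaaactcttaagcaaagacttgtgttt
Cmah, second RefSeq start, plus strand, chr13:24414872-24415121: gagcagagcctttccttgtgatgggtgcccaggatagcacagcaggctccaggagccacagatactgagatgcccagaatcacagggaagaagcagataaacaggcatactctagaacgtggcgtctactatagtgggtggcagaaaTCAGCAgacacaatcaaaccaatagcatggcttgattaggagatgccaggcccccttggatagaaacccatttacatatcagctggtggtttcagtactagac
TAATCC or its reverse complement was in 0 of the 8 sequences, against 6.25% of all 32851 RefSeq promoters of this length. TGCTGA or its reverse complement was in 1 of the 8, at the second start of Cmah, against 16.1% of all promoters. The start sites of Slc17a1 and Gm11342 that RefSeq gives lie inside the GENCODE gene bodies, downstream of their GENCODE starts. A 3' count does not show which start was used.

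Cells kept the 7 deposited type names, which were rods, cones, Müller glia (MG), and the bipolar (BC), amacrine (AC), horizontal (HC) and retinal ganglion cells (RGC). For rods, 4 of 4 markers (Nrl, Nr2e3, Pde6b and Gnat1) were highest in rods of both libraries, and so were 5 of 5 markers of cones, BC, MG and RGC, 4 of 4 of HC and 4 of 5 of AC in their own type. There were 16421 cells and 32758836 UMIs in Ptbp1-Ctrl, and 14522 cells and 35328593 UMIs in Ptbp1-KO. Rods numbered 10058 (13038207 UMIs, median 1088 per cell) and 9301 (14494233 UMIs, median 1288). Ptbp1 had 255 UMIs in rods of Ptbp1-Ctrl and 4 in rods of Ptbp1-KO, and 294 and 6 in MG, which fits the labels. The libraries shared 63 cell barcodes, and rods of Ptbp1-Ctrl with such a barcode held 0 UMIs of Slc17a1 and 0 of Gm11342. Both libraries held UMIs of 4 Y-linked genes (16275 and 19242) and few of Xist (5 and 6), although the study describes its single-cell mice as female.

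In rods, all 8 genes had a level at least 2-fold higher in Ptbp1-KO. Levels are given as CPM, a gene's UMIs per 1000000 UMIs summed over the cells of 1 type in 1 library, and differences as log2 Ptbp1-KO/Ptbp1-Ctrl. The 95% intervals (exact Poisson for a level, exact conditional binomial for a difference) cover counting error only. Over all 15213 genes with at least 20 UMIs in rods of both libraries together, 5.72% were at least 2-fold higher in Ptbp1-KO and 0.73% at least 2-fold lower. The median log2 difference was 5.16 over the 8 genes and 0.09 over all genes. Since these genes were chosen from this comparison, nothing is read from the excess.

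The 4 transporter genes had between 1 and 29 UMIs in all rods of Ptbp1-Ctrl together. Slc17a1, which encodes a phosphate and urate carrier of the kidney brush border, had 29 UMIs in rods of Ptbp1-Ctrl (2.22 CPM, interval 1.49 to 3.19) and 1697 in rods of Ptbp1-KO (117 CPM, 112 to 123), a log2 difference of 5.72 (5.19 to 6.30). Slc17a3, a related organic anion transporter, had 11 and 348 UMIs (0.844 and 24.0 CPM), a log2 difference of 4.83 (3.97 to 5.85). Slc17a2 had 10 and 83 UMIs (0.767 and 5.73 CPM), a log2 difference of 2.90 (1.95 to 4.01). Every one of these intervals lay clear of 0, and the Ptbp1-Ctrl and Ptbp1-KO level intervals did not overlap. The genes were chosen from these same rods, so this is a description and no test. Slc17a4, known as an intestinal organic anion transporter, had 1 UMI in rods of Ptbp1-Ctrl and 190 in rods of Ptbp1-KO (0.0767 and 13.1 CPM). With a single count in Ptbp1-Ctrl its log2 difference could lie anywhere from 4.92 to 12.7.

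At the other end of the span, Gm11342 had 6 UMIs in rods of Ptbp1-Ctrl (0.460 CPM, 0.169 to 1.002) and 1597 in rods of Ptbp1-KO (110 CPM, 105 to 116). Its log2 difference was 7.90 (6.78 to 9.35). Cmah, which surrounds it on the other strand, had 15 and 745 UMIs (1.15 and 51.4 CPM), a log2 difference of 5.48 (4.75 to 6.33). Carmil1 and Scgn had at least 80 UMIs in rods of both libraries, unlike the other 6 genes. Carmil1 had 199 and 1023 UMIs (15.3 and 70.6 CPM), a log2 difference of 2.21 (1.99 to 2.44). Scgn had 80 and 255 UMIs (6.14 and 17.6 CPM), a log2 difference of 1.52 (1.15 to 1.90), the smallest of the 8. As for the threshold used for counting, Scgn was the gene nearest to it, 2.87-fold higher (2.22 to 3.73).

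**Figure D1:**
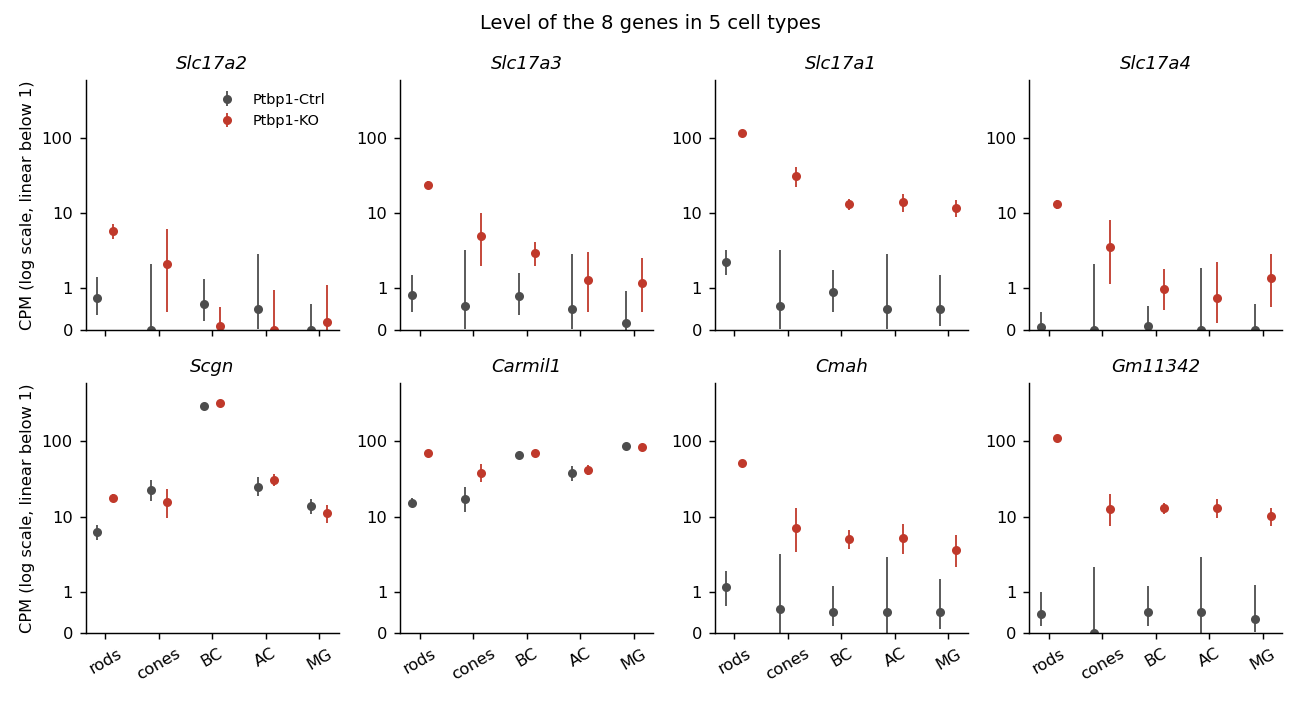
Level of each of the 8 genes (CPM, vertical axis, log scale above 1 and linear below) in rods, cones, BC, AC and MG of Ptbp1-Ctrl (grey) and Ptbp1-KO (red), 1 library each. Points are levels of summed UMIs and bars are exact 95% Poisson intervals. In rods the red point lies above the grey one for every gene, from 17.6 against 6.14 CPM for Scgn to 110 against 0.460 for Gm11342, while Scgn in BC and Carmil1 in BC and MG are at like levels in both libraries.

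The UMIs were spread over many rods. Any UMI of the 8 genes was found in 331 of 10058 rods of Ptbp1-Ctrl (3.29%, exact Clopper-Pearson interval 2.95 to 3.66) and in 3869 of 9301 rods of Ptbp1-KO (41.6%, 40.6 to 42.6). In Ptbp1-KO, 2840 rods held UMIs of 1 of the genes, 817 of 2, 179 of 3 and 33 of 4 or more. Single counts prevailed. Slc17a1 had 1 UMI in 1226 rods, 2 in 187 and from 3 to 5 in the rest of its 1442 rods, and Gm11342 had 1 UMI in 1125 rods and 2 in 187 of its 1342.

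Shares of rods with a UMI were compared after thinning to 1000 UMIs a cell, which left out 4155 rods of Ptbp1-Ctrl and 3126 of Ptbp1-KO and kept 5903 and 6175. Slc17a1 was then found in 0.254% of rods of Ptbp1-Ctrl (0.142 to 0.419) and 10.3% of rods of Ptbp1-KO (9.54 to 11.1), against 0.259% and 15.5% without thinning. Gm11342 was found in 0.0339% (0.00410 to 0.122) and 9.88% (9.15 to 10.6), against 0.0597% and 14.4% without thinning. The shares of the other genes at 1000 UMIs also lay apart in rods. Carmil1 was found in 1.30% and 6.46%, Cmah in 0.102% and 4.36%, Slc17a3 in 0.0847% and 2.17%, and Scgn in 0.542% and 1.65%. Slc17a2 was found in 0.119% and 0.518%. Slc17a4 was found in 0 of 5903 rods of Ptbp1-Ctrl, which at a floor of 3 cells allows a share of up to 0.0508% (exact upper bound 0.0625%), and in 1.25% of rods of Ptbp1-KO. The interval in Ptbp1-KO lay above that in Ptbp1-Ctrl for each of the 8 genes. As the genes were chosen from these rods and cells of 1 library are no replicates, nothing is read from this. Among rods with 700 to 1000 UMIs, 0 of 4155 of Ptbp1-Ctrl and 342 of 3126 of Ptbp1-KO (10.9%) held Gm11342. Among those with 2000 UMIs or more the figures were 3 of 1121 and 419 of 2023 (20.7%). The level of Gm11342 in Ptbp1-KO ran the other way, at 147 CPM in rods with 700 to 1000 UMIs and 91.4 CPM in those with 2000 or more.

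Outside rods fewer of the 8 genes had enough UMIs. In cones 3 of the 8 had at least 20 UMIs and 2 were at least 2-fold higher in Ptbp1-KO, where 2.25% of all counted genes were. In BC 4 of 6 were higher against 2.23% of all genes, in AC 3 of 5 against 1.82% and in MG 3 of 5 against 2.43%. In these types 0 of the counted genes among the 8 were at least 2-fold lower, against 1.30% of genes in cones, 1.15% in BC, 1.17% in AC and 1.56% in MG. Most of the genes that were higher reached 20 UMIs only through Ptbp1-KO, as with Gm11342 in AC (1 and 50 UMIs) and Cmah in MG (3 and 18), so they had to differ and nothing is read from these counts. The genes that were higher were Slc17a1, Cmah and Gm11342 in BC, AC and MG, with Slc17a3 in BC, and Slc17a1 and Carmil1 in cones.

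Slc17a1 stood at 117 CPM in rods of Ptbp1-KO, 30.9 CPM (22.4 to 41.4) in cones, 14.0 in AC, 13.2 in BC and 11.8 in MG. Rods and cones lay apart from each other and from the rest, while the intervals of AC, BC and MG overlapped. In Ptbp1-Ctrl it had 1 UMI in cones, 1 in AC, 9 in BC and 3 in MG. Its log2 difference was 3.84 (2.87 to 5.002) in BC, 4.54 (2.92 to 6.86) in MG, 4.78 (2.24 to 10.1) in AC and 5.75 (3.20 to 11.1) in cones. Gm11342 stood at 110 CPM in rods of Ptbp1-KO and between 10.0 and 12.96 CPM in MG, cones, BC and AC, whose intervals overlapped. Its log2 difference was 4.65 (3.39 to 6.29) in BC, 4.66 (2.12 to 10.0) in AC and 4.89 (2.96 to 7.97) in MG. In cones it had 0 and 18 UMIs, at least 7.35-fold higher when the Ptbp1-Ctrl sum is set at a floor of 3 counts. Cmah ran in the order of Slc17a1, with 51.4 CPM in rods of Ptbp1-KO and between 3.54 and 7.01 CPM in the other 4 types. In RGC, which held only 213051 and 183610 UMIs, Slc17a1 had 1 and 10 UMIs, Gm11342 had 0 and 7 and Cmah had 1 and 6. In HC, with 110776 and 42851 UMIs, 7 of the 8 genes had 0 UMIs in both libraries, which at a floor of 3 counts allows up to 27.1 and 70.0 CPM.

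Gnat1, the rod transducin alpha subunit, was found in each of the other types as well, with 5395 CPM in rods of Ptbp1-KO, 1536 in cones, 819.5 in BC, 1036 in AC, 828 in MG and 4978 in RGC. RNA from 1 source of fixed composition would keep its genes in 1 ratio in every type of a library. The UMIs of each gene outside rods were therefore divided by the number that its ratio to Gnat1 over all rods gives. For Slc17a1 in Ptbp1-KO this value was 0.926 (0.673 to 1.24) in cones, 0.741 (0.622 to 0.877) in BC, 0.622 (0.468 to 0.812) in AC and 0.657 (0.501 to 0.845) in MG. For Gm11342 it was 0.402 (0.239 to 0.636) in cones, 0.764 (0.639 to 0.907) in BC, 0.612 (0.4545 to 0.807) in AC and 0.593 (0.442 to 0.780) in MG, and for Cmah it lay between 0.449 and 0.638. For these 3 genes the UMIs outside rods of Ptbp1-KO did not exceed the ratio over all rods beyond counting error. These UMIs are not read as expression by cones, BC, AC or MG, and their source was not tested. The ratio was not the same in all rods of Ptbp1-KO. Deposited rod cluster 0 held Slc17a1 at 151 CPM and Gnat1 at 2410, and cluster 3 held them at 33.9 and 13558. The values thus depend on which rods form the reference. In Ptbp1-Ctrl the rod ratios rest on only 29 UMIs of Slc17a1 and 6 of Gm11342 in rods. There BC lay above 1 for Slc17a1 (9 UMIs, 2.68, 1.23 to 5.09) and for Gm11342 (5 UMIs, 7.20, 2.34 to 16.8), with intervals that leave out the error of the rod count. Slc17a3 (0.281 to 0.803) and Slc17a4 (0.309 to 0.940) had values in the same range over the 4 types, from 3 to 30 UMIs each, and Slc17a2 had at most 3 UMIs in any of them. In RGC the values were 0.504 for Slc17a1 and 0.375 for Gm11342. Scgn and Carmil1 behaved otherwise. For Carmil1 the value was 6.48 (6.01 to 6.97) in BC, 7.84 (7.12 to 8.62) in MG, 3.12 in AC and 1.88 in cones, and for Scgn it was 123 in BC, 9.05 in AC, 4.08 in MG and 3.08 in cones.

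**Figure D2:**
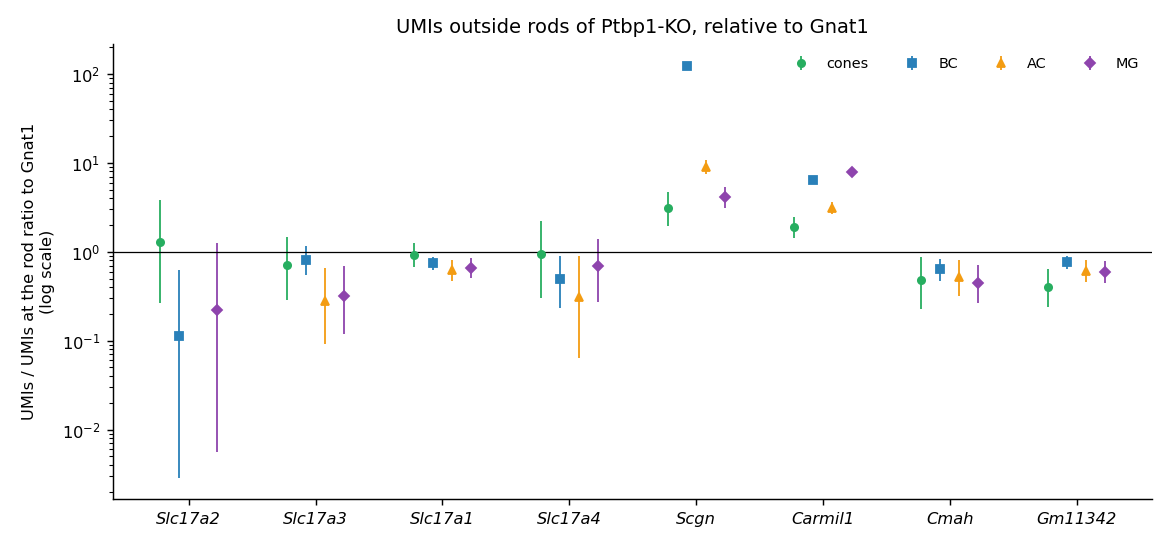
UMIs of each of the 8 genes in cones, BC, AC and MG of Ptbp1-KO, divided by the UMIs that the ratio of the gene to Gnat1 in rods gives for the Gnat1 UMIs of that type (vertical axis, log scale). Bars are exact 95% Poisson intervals of the gene's count, the line marks 1, and sums with 0 UMIs (Slc17a2 in AC) are not drawn. Slc17a1, Cmah and Gm11342 lie near 1 or below in all 4 types, while Scgn reaches 123 in BC and Carmil1 7.84 in MG.

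Carmil1 and Scgn were at home in other cell types of both libraries. Carmil1 was highest in MG, at 86.2 CPM (78.9 to 94.0) in Ptbp1-Ctrl and 84.9 (77.1 to 93.3) in Ptbp1-KO, a log2 difference of -0.02 (-0.21 to 0.17). In BC it stood at 65.2 and 69.4 CPM, a log2 difference of 0.09 (-0.06 to 0.25), and in AC at 37.8 and 42.3 CPM, a log2 difference of 0.16 (-0.25 to 0.58). These intervals include 0 and lie wholly below that of rods. In cones it stood at 17.2 and 37.9 CPM, a log2 difference of 1.14 (0.47 to 1.83). Among these 5 types, rods ranked last for Carmil1 in Ptbp1-Ctrl, at 15.3 CPM with an interval that overlapped that of cones. They ranked second in Ptbp1-KO, where 70.6 CPM overlapped with BC.

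Scgn was highest in BC, at 299 CPM (288 to 310) in Ptbp1-Ctrl and 328 (317 to 339) in Ptbp1-KO, a log2 difference of 0.14 (0.06 to 0.21). After thinning to 1000 UMIs, 21.3% of BC of Ptbp1-Ctrl (19.8 to 22.8) and 21.3% of BC of Ptbp1-KO (19.8 to 23.0) held it. In AC it stood at 25.0 and 30.6 CPM, a log2 difference of 0.29 (-0.20 to 0.80). In cones it stood at 22.3 and 15.4 CPM, a log2 difference of -0.53 (-1.36 to 0.26), and in MG at 13.7 and 11.0 CPM, -0.32 (-0.83 to 0.19). Thinning to 1000 UMIs moved the MG value to -1.999, outside that interval. Most of the MG UMIs came from the small deposited cluster 22, with 65 of 81 in Ptbp1-Ctrl (89 cells, 124 CPM) and 42 of 56 in Ptbp1-KO (54 cells, 112 CPM). The main MG cluster 4 stood at 2.79 CPM (1386 cells) and 3.14 CPM (994 cells), so the MG values of Scgn, its rod ratio included, describe few cells. Rods were the lowest of the 5 types taken whole in Ptbp1-Ctrl and overlapped with cones in Ptbp1-KO. Whether the differences of Scgn or Carmil1 themselves differ between rods and the other types was not tested.

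The deposited table divides rods into 4 main clusters, numbered 0 to 3, and the 8 genes varied among them in Ptbp1-KO. Slc17a1 stood at 151 CPM (142 to 160) in cluster 0, 126 in cluster 1, 106 in cluster 2 and 33.9 (27.01 to 41.9) in cluster 3. Gm11342 followed the same order, at 148, 113, 92.3 and 29.4 CPM. Cmah fell further, from 78.3 and 67.4 CPM in clusters 0 and 1 to 26.6 in cluster 2 and 5.64 in cluster 3, and Carmil1 ran from 98.7 and 85.3 to 48.6 and 17.3. Scgn ran from 22.3 and 23.9 to 11.0 and 11.3. Across these clusters the nuclear RNA Malat1 stood at 41006, 31825, 28976 and 6883 CPM and Gnat1 at 2410, 2598, 6459 and 13558 CPM. The part of these differences in the levels of the 8 genes was not tested. Between the libraries the interval of the difference lay above 0 for every gene within each cluster, except for Slc17a2 in cluster 3, which had 0 and 1 UMIs. The clusters are parts of the rods from which the genes were chosen, so this is no separate check. The log2 difference of Slc17a1 was 5.78 (5.02 to 6.65) in cluster 0, 5.22 in cluster 1, 5.63 in cluster 2 and 5.18 (3.59 to 7.49) in cluster 3, and that of Carmil1 was 2.17, 2.12, 1.92 and 1.80. Other genes spread more widely. Scgn stood at 1.47, 2.14, 0.85 and 1.72, under 2-fold in cluster 2. Slc17a3 stood at 5.15, 4.62, 4.56 and 2.37, the last from 2 and 8 UMIs. Cmah stood at 5.83, 5.64, 4.11 and 4.18, and Slc17a2 at 3.78, 2.07 and 1.68 in clusters 0 to 2. Gm11342 had 3, 0, 1 and 2 UMIs in clusters 0 to 3 of Ptbp1-Ctrl and 1040, 133, 351 and 73 in Ptbp1-KO. As the clusters were made from all genes of these cells, the order of clusters is a description.

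**Figure D3:**
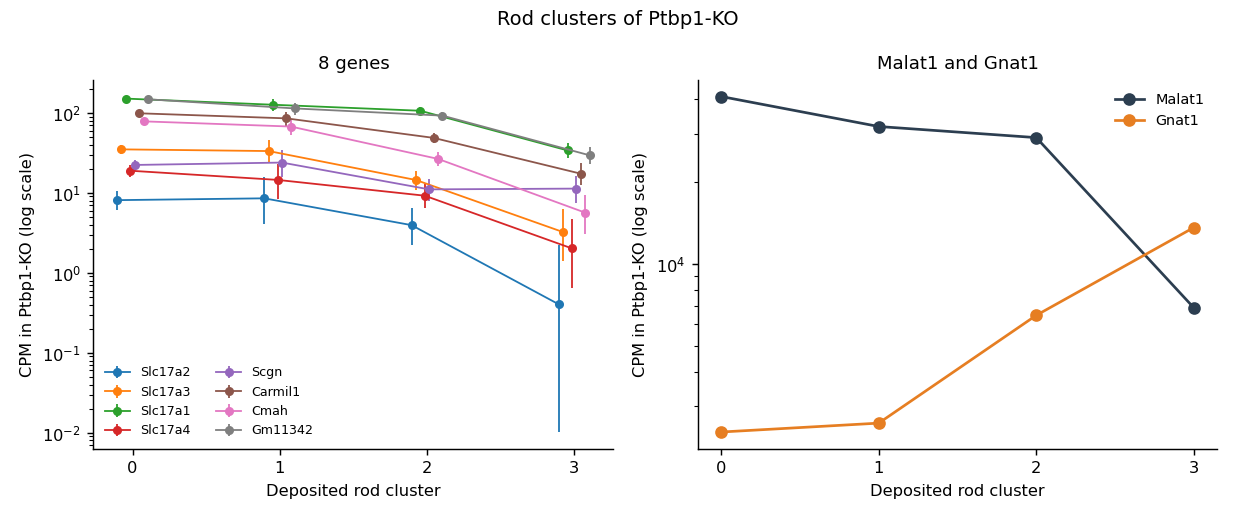
Levels in the 4 deposited rod clusters of Ptbp1-KO, in CPM on a log scale, with the 8 genes on the left (bars are exact 95% Poisson intervals) and Malat1 and Gnat1 on the right. Slc17a1 runs from 151 CPM in cluster 0 to 33.9 in cluster 3, Malat1 from 41006 to 6883, and Gnat1 the other way from 2410 to 13558.

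Pairs of the 8 genes were then followed within single rods of Ptbp1-KO, with the expected number formed from the product of the shares within 10 strata of cell depth. Slc17a1 and Gm11342, whose gene bodies lie 440 kb apart, shared 247 rods against 223 expected, a ratio of 1.11 (0.972 to 1.25), and 1.01 when the strata also kept the rod clusters apart. Of the 1442 rods with Slc17a1, 17.1% held Gm11342, and of the 1342 rods with Gm11342, 18.4% held Slc17a1. The overlapping pair Cmah and Gm11342 shared 224 rods against 97.5 expected, a ratio of 2.30 (2.01 to 2.62). Slc17a3 and Slc17a1, neighbours on the same strand 7.03 kb apart, shared 106 rods against 49.99 expected, a ratio of 2.12 (1.74 to 2.56). Slc17a2 shared 12 rods with Slc17a3, a ratio of 4.35 (2.25 to 7.60), and 28 rods with Slc17a1, a ratio of 2.19 (1.46 to 3.17). Slc17a1 and Slc17a4, which face each other 0.16 kb apart, shared 45 rods, a ratio of 1.52 (1.11 to 2.04). In the same order these 5 ratios were 2.04, 1.94, 3.79, 1.94 and 1.38 when clusters were kept apart. Among farther pairs, Slc17a1 with Cmah (1.23, 1.03 to 1.47, then 1.11) and Carmil1 with Gm11342 (1.24, 1.06 to 1.45, then 1.12) came nearer to 1 with clusters kept apart. Others did not, as Slc17a2 with Gm11342 (11 rods, 0.923, then 0.822) and Slc17a3 with Scgn (11 rods, 1.27, then 1.28). Carmil1 with Cmah stood at 1.19 (0.935 to 1.49) and Scgn with Carmil1 at 0.9505 (0.596 to 1.44). Reads of overlapping genes may be counted for either, so the value of Cmah with Gm11342 does not show 2 RNAs in a cell.

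**Figure D4:**
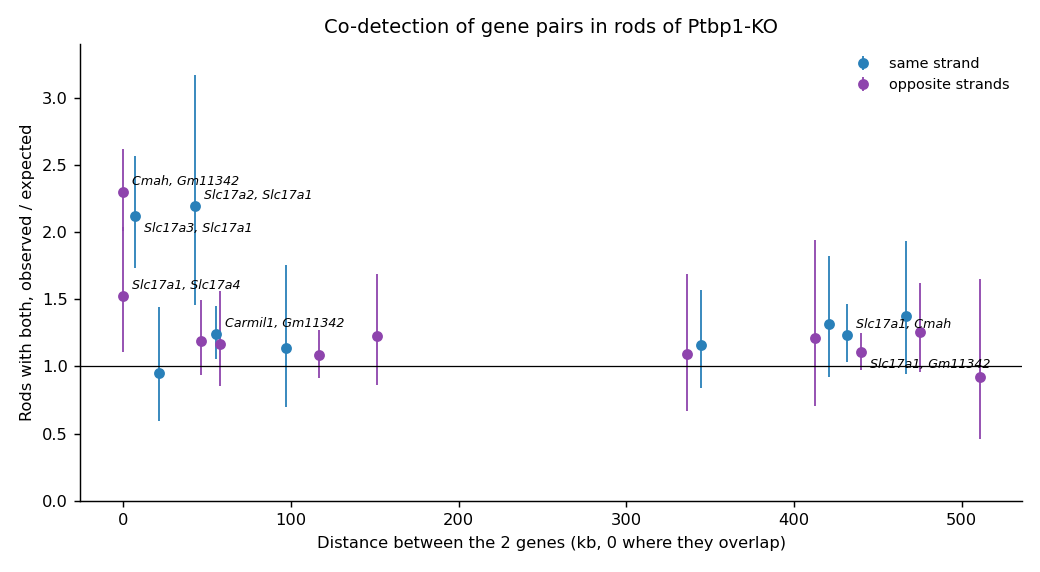
Rods of Ptbp1-KO that hold UMIs of both genes of a pair, divided by the number expected from the shares within depth strata (vertical axis), against the distance between the 2 gene bodies in kb, for pairs with at least 10 expected rods. Bars are exact 95% Poisson intervals and colours mark pairs on the same or on opposite strands. Cmah with Gm11342 (2.30) and Slc17a3 with Slc17a1 (2.12), at the left end, lie above the line at 1, while Slc17a1 with Gm11342, 440 kb apart, lies at 1.11.

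Of the 132 genes annotated within 1 Mb of the 670 kb span, 73 were in the count table, 65 of them outside the list of 8. Inside the span, 1 further gene had at least 20 UMIs in rods. This was Gm11339, the antisense gene within Scgn, with 1 UMI in Ptbp1-Ctrl and 151 in Ptbp1-KO, a log2 difference that could lie anywhere from 4.59 to 12.4. Below the span, 7 of 27 counted genes were at least 2-fold higher in rods of Ptbp1-KO and 0 were lower, against 5.72% and 0.73% of all genes. Some reached 20 UMIs mainly through Ptbp1-KO, as Hist1h2bb (3 and 17 UMIs) and Hist1h3d (5 and 19), so nothing is read from this count. Nearest were Gm11337, an antisense RNA (26 and 194 UMIs, log2 difference 2.75, 2.15 to 3.397), and Trim38, a ubiquitin ligase of antiviral signalling (11 and 46 UMIs, 1.91, 0.94 to 3.01). Farther out were Hfe, whose product regulates iron uptake (31 and 103 UMIs, 1.58), and the histone genes Hist1h2bb (2.35), Hist1h2ae (1.86), Hist1h3d (1.77) and Hist1h4d (1.41). Histone genes of 1 class in this cluster can be close copies of each other, so that their counts may be uncertain. The other counted histone genes below the span ran from -0.54 (Hist1h1d) to 0.98 (Hist1h1a), and among them Hist1h1c had 2688 and 2441 UMIs with a log2 difference of -0.29 (-0.37 to -0.21). Above the span 0 of 10 counted genes passed 2-fold in either direction, and the next gene after Cmah, Ripor2, stood at 0.37 (-0.44 to 1.20).

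In BC, 4 of 20 counted genes below the span and 0 of 11 above it were at least 2-fold higher. The 4 were Hfe and the histone genes Hist1h4d, Hist1h2ae and Hist1h3e. In MG, 6 of 23 genes below and 0 of 11 above were higher, and all 6 were histone genes. Hist1h4d was higher in all 5 types, with log2 differences of 1.41 in rods, 1.57 in cones, 2.69 in BC, 1.75 in AC and 1.43 in MG. The background shares are those given for each type above. Here too some genes reached 20 UMIs mainly through Ptbp1-KO, as Hfe in BC (3 and 17 UMIs), so nothing is read from these counts.

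**Figure D5:**
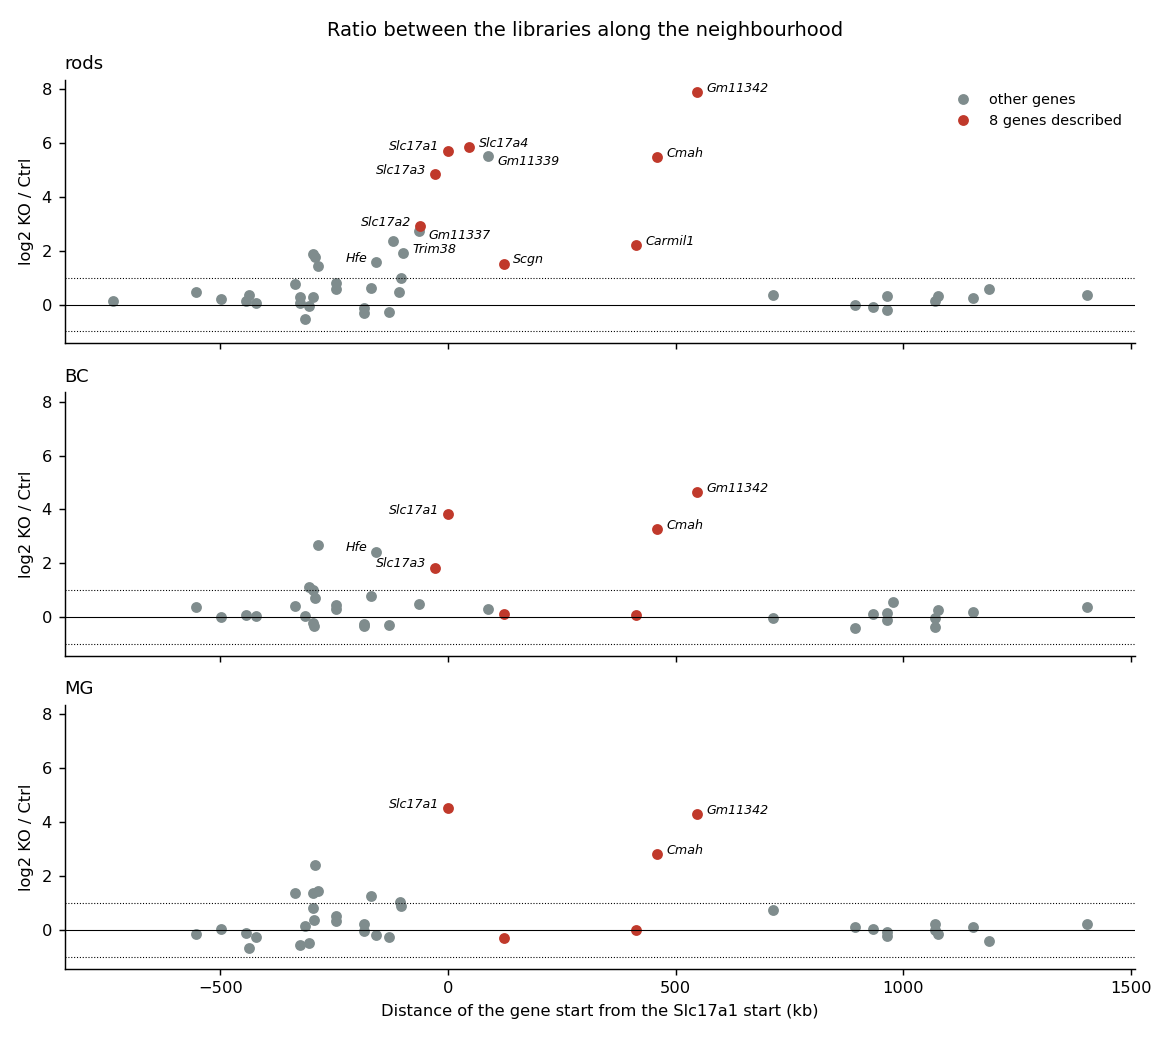
Log2 Ptbp1-KO/Ptbp1-Ctrl (vertical axis) for genes with at least 20 UMIs in rods, BC or MG, against the distance of the gene's start from that of Slc17a1 in kb. Sums under 3 UMIs are set at 3, dotted lines mark 2-fold differences, and genes at least 2-fold higher are named, histone genes apart. In rods every point from Trim38, just below Slc17a2, to Gm11342 at the right lies above the upper dotted line, Hfe and 4 histone genes farther left do so too, and the 10 genes above the span lie within 0.6 of 0.

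Over the 10 sums of 5 cell types and 2 libraries, the genes whose log2(CPM + 1) ran most like that of Gm11342 among 16581 genes were Slc17a1 (Pearson r 0.979), Cmah (0.973), Gm20110 (0.951), A930015D03Rik (0.942) and D130009I18Rik (0.941). For Slc17a1 they were Gm11342 (0.979), Poc1a (0.979), A930015D03Rik (0.975), Cmah (0.973) and H2-T24 (0.959). The 10 values share 2 libraries, so r is a description. Poc1a, which encodes a centriole protein and lies on chromosome 9, had 8.82 CPM in rods of Ptbp1-Ctrl and 103 in rods of Ptbp1-KO, a log2 difference of 3.55 (3.27 to 3.83). A930015D03Rik on chromosome 17 had 10.5 and 75.1 CPM (2.84, 2.58 to 3.11), and its neighbour in the class I region, H2-T24, had 10 and 77 UMIs (2.79, 1.84 to 3.91). Gm20110 on chromosome 10 had 0 and 149 UMIs in rods, at least 44.7-fold higher against a floor of 3 counts. D130009I18Rik on chromosome 14 had 30 and 91 UMIs (1.45, 0.84 to 2.09). The other genes of the neighbourhood ranked lower, with r to Gm11342 of 0.926 for Slc17a4, 0.887 for Slc17a3, 0.616 for Slc17a2, 0.440 for Carmil1 and 0.01 for Scgn.

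Lists of genes with related roles elsewhere in the genome were counted in rods as well, where 5.72% of all genes were at least 2-fold higher and 0.73% lower. There, 0 of 5 counted members of the rest of the SLC17 family were at least 2-fold higher or lower, with a median log2 difference of -0.12 (-0.74 to 0.36 over genes). Among them Slc17a7, the vesicular glutamate transporter of photoreceptors and BC, had 819 CPM in rods of Ptbp1-Ctrl and 754 in rods of Ptbp1-KO, a log2 difference of -0.12 (-0.16 to -0.08). The same count was 0 of 4 for other phosphate and urate transporters, 0 of 7 for sialic acid metabolism, 0 of 7 for capping protein and the CARMIL family and 0 of 9 for EF-hand calcium-binding proteins. Counts of 0 in lists this short are near the shares over all genes, and nothing is read from them. The medians were 0.19, -0.06, 0.10 and 0.25, beside 0.09 over all genes. In the other 4 types, there were 5 cases of a list member past 2-fold, and nothing is read from them. They were 1 of 3, 1 of 5 and 1 of 4 counted SLC17 genes in cones, BC and MG. The rest were 1 of 6 capping genes in MG and 1 of 8 EF-hand genes in BC, while other lists and types had 0. Over all genes, 2.25% were higher and 1.30% lower in cones, 2.23% and 1.15% in BC. In AC these shares were 1.82% and 1.17%, and in MG 2.43% and 1.56%. Slc17a5, a lysosomal sialic acid exporter, was higher in cones (15 and 26 UMIs, log2 difference 1.09, 0.11 to 2.11). Slc17a8, a vesicular glutamate transporter, was lower in BC (20 and 5 UMIs, -2.06) and higher in MG (38 and 79 UMIs, 1.27). Carmil3 was lower in MG (-1.05), and Calb1, which encodes calbindin, was higher in BC (1.002).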

How the data were processed

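Single-cell RNA sequencing of retina from 1 Ptbp1-Ctrl and 1 Ptbp1-KO mouse was analysed from the deposited count table. According to the labels and the methods of the study, the authors aligned reads to mm10 with Cell Ranger 7.0.1 and filtered cells in Seurat (version 4 in the submitters' processing notes), and they deposited raw UMI counts per gene and cell with no normalization. Strand setting, intron setting and gene annotation were not given in the sources used here. The authors' cell table gave UMI counts and the percent of mitochondrial UMIs per cell, with sample, cluster and cell type, and 2 further columns of per-cell values were not used. Groups follow the genotype labels.

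UMIs were summed per library and deposited cell type and given as CPM. Intervals are exact Poisson, conditional binomial or Clopper-Pearson at 95% and cover counting error only. As each genotype had 1 library, no p-value was computed, and the Wilcoxon test over cells of the study was not used. Genes with at least 20 UMIs over both libraries were counted, and "called" means past 2-fold. A floor of 3 counts per sum was used against sums of 0. No doublet caller was run. Cells were thinned to 1000 UMIs for shares. Named genes were the 8 members, Ptbp1, the 5 genes most like each leading gene (at least 50 UMIs), neighbours within 1 Mb past 2-fold in rods, and members of 5 lists past 2-fold in rods or in the type where they are highest. Gnat1 as rod reference, Hist1h1c, Ripor2, Slc17a7, Malat1 and the list members and neighbours named outside rods were added after their values were seen. A further rod gene and 1 of the runs of neighbouring genes are not reported here. The 8 genes, lists and comparisons were chosen with earlier results of these data known. Python 3.11.15, numpy 2.4.6, scipy 1.17.1, pandas 2.3.3, R 4.3.3 and edgeR 4.0.16 (TMM factors only) were used. The ratios were tested on simulated data. Positions are from GENCODE M21 and promoters from RefSeq.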

Additional observations from a re-analysis of the deposited data

Results flagged for a closer look

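The 8 genes were compared between rods and cones, BC, AC or MG where they had at least 20 UMIs. In 3 cases a gene that was higher in rods of Ptbp1-KO stood lower in another cell type. Scgn had a log2 difference of 1.52 in rods, -0.53 in cones and -0.32 in MG. Carmil1 had a log2 difference of 2.21 in rods and -0.021 in MG. With fewer UMIs, Slc17a2, which had a log2 difference of 2.90 in rods, had 6 and 1 UMIs in BC, a log2 difference of -2.65 (-8.17 to 0.39). The intervals in cones, MG and BC include 0, and none of these differences between types was tested.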

How the results depend on the processing

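The direction of the difference in rods was the same for all 8 genes under thinning to 1000 UMIs, TMM scaling, leaving out mitochondrial genes, leaving out the 5% of cells with most UMIs, the mean of per-cell CPM and cells of clusters with 1 type, and within each rod cluster that gave a ratio. The range over these settings was 5.18 to 5.78 for Slc17a1 and 5.56 to 8.56 for Gm11342 on the log2 scale. It was 0.85 to 2.14 for Scgn, which fell under 2-fold in rod cluster 2, and 1.80 to 2.38 for Carmil1. Slc17a2 ran from 1.68 to 3.78, Slc17a3 from 2.37 to 5.15, Slc17a4 from 4.91 to 8.37 and Cmah from 4.11 to 5.83. The lowest values of Slc17a1 and Gm11342, 5.18 and 5.56, came from rod cluster 3, an alternative chosen after seeing the data. They lay below the intervals of all rods but rest on 3 and 2 UMIs in Ptbp1-Ctrl. Their own intervals, 3.59 to 7.49 and 3.66 to 8.64, include the values of all rods, 5.72 and 7.90. Whether cluster 3 differs from all rods was not tested. Against all 8 genes past 2-fold in rods, 8 passed 1.5-fold and 7 passed 4-fold, and the count was 8 with at least 1 or at least 50 UMIs. Shares over all genes were not taken at these settings, and nothing is read from these counts. Scgn in MG moved from -0.32 to -1.999 after thinning and to -0.95 without the 5% of cells with most UMIs. Carmil1 changed sign in BC after thinning (-0.15) and in AC in clusters with 1 type (-0.22). TMM scaling shifted rod values by -0.09. With 200 UMIs as the minimum, H2-T24 gave way to D130009I18Rik among the 5 genes most like Slc17a1. The sum of 4 rod markers, Gnat1 among them, left each rod ratio inside its interval. Gnat1 gave 78195 of the 134142 UMIs of that sum in rods of Ptbp1-KO, so this is no separate check. Strata of depth and cluster left each co-detection value inside its interval. Both settings were chosen after seeing the data. No paired analysis was possible because there was 1 library per genotype. Levels under 1 CPM rest on fewer than 15 UMIs in rods, and RGC and HC were too shallow for ratios.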

Other observations

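Along the genome, neighbouring genes with at least 20 UMIs in rods were joined into runs in which each was at least 2-fold higher in Ptbp1-KO, a description made after the values were seen. The longest run held 11 genes over 707 kb, from Trim38 to Gm11342, and included the 8 genes described, with Gm11337 and Gm11339. The next held 6 genes around Trim43b and Trim43c on chromosome 9, followed by 2 runs of 4 genes, one of them holding Gm20110 on chromosome 10. In BC and MG the longest runs held 3 and 5 genes and lay on other chromosomes, while Cmah and Gm11342 formed a run of 2 genes in BC, AC and MG. Just below the run in rods, Hist1h1a stood at a log2 difference of 0.98 (-0.15 to 2.23).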
